A study of Mus musculus with 178 samples.

Results

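The insulin-like growth factor (IGF) family was followed through 10 genes, the ligands Igf1 and Igf2, the receptors Igf1r and Igf2r, and the binding proteins Igfbp2, Igfbp3, Igfbp4, Igfbp5, Igfbp6 and Igfbp7. They were chosen by gene symbol, without regard to their values, and are 10 of the 24421 genes in the count tables. The study injected the mouse tibialis anterior, a muscle of the lower leg, with notexin, a toxin of snake venom under which fibres die while their stem cells survive, and sequenced RNA of sorted cells up to day 14. There were 178 libraries, 41 from CCR2KO mice and 137 from wild-type mice of a B6 background (the background of the CCR2KO mice is not given apart), and undamaged muscle counts as day 0.

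Fibro-adipogenic progenitors (FAP), the connective tissue cells of muscle, were CD45-/CD31- cells with the EGFP reporter of PDGFRa (18 CCR2KO and 32 wild-type libraries). Endothelial cells (EC) were CD45-/CD31+ (14 CCR2KO and 31 wild-type libraries), and myogenic progenitors (MP) were CD45-/CD31- cells with alpha-7 integrin and VCAM (9 CCR2KO and 16 wild-type libraries). Inflammatory cells were CD45+/CD31- (27 wild-type libraries), and the labels name PDGFRa EGFP mice and CCR2KO mice as the source of these 4 populations. Pericytes, the cells that wrap small vessels, were CD45-/CD31-/Sca1- cells with the DsRed reporter of NG2 (10 wild-type libraries), and total muscle gave 21 wild-type libraries. All groups other than day 0 had received notexin, and neither age nor sex of the mice is stated in the labels. A group of 1 cell type, genotype and day held 1 to 6 libraries, and whether these stem from different animals is not stated, so the p-values speak only of the spread among libraries.

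IGF-1 and IGF-2 are secreted growth factors that signal through the receptor tyrosine kinase IGF1R, while IGF2R binds IGF-2 and carries it to lysosomes for degradation. IGF binding proteins hold the ligands in tissue and plasma, and can block or prolong their action, and proteases release the ligands again. In muscle both ligands are known for their part in growth and regeneration, IGF-1 as a signal for protein synthesis and myoblast growth and IGF-2 as an autocrine signal of differentiating myoblasts.

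Gene counts summed to 1236809 to 37740952 per library (median 13736699), and levels are given as CPM, the count of a gene scaled to a common library total. Ccr2, the targeted gene, had medians of 0 CPM in CCR2KO FAP, 0 CPM in CCR2KO MP and 0.0831 CPM in CCR2KO EC, against 0.938 CPM in wild-type FAP, 4.58 CPM in wild-type MP and 5.47 CPM in wild-type EC. It reached 1 CPM in 4 CCR2KO libraries (1 EC, 1 FAP and 2 MP). Of 157 sorted libraries, 152 correlated best with the mean profile of their own label. Of the other 5, all wild type, library 3 of EC day 1 and library 5 of EC day 3 correlated best with FAP. Among MP, library 1 of day 2 and library 1 of day 3 did so with inflammatory cells and library 1 of day 10 with pericytes. The defining markers of each labelled cell type were all detected in it, and the pericyte libraries also held all 5 Schwann cell markers (397 to 3910 CPM in sum). Their FAP markers summed to 1642 to 43510 CPM, against 22220 to 148100 CPM in wild-type FAP. The highest sum was that of the single day 5 library, whose pericyte markers summed to 12600 CPM. The part of these in the pericyte levels was not tested. In such bulk libraries, fewer cells of a type and less RNA per cell cannot be told apart.

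Each population was first set against the other sorted populations in wild-type libraries, as the mean over days 0, 1, 2, 3, 5 and 10. The family divided by cell type: Igf1, Igfbp4 and Igfbp6 had their highest mean CPM in FAP, Igf2, Igf1r, Igf2r and Igfbp2 in MP, Igfbp3 and Igfbp7 in EC, and Igfbp5 in pericytes. Inflammatory cells had the lowest mean of every member but Igf1, though not of Igfbp3 without day 5 or of Igfbp4 without day 10. The MP lead of Igf2, Igf2r and Igfbp2 depended on single days: pericytes led for Igf2 without day 5, on which MP had 1 library, and for Igfbp2 without day 3 (19.1 CPM in pericytes and 12.5 CPM in MP), and FAP led for Igf2r without day 0, 5 or 10. All tests across genes are edgeR's quasi-likelihood test with Benjamini-Hochberg adjustment over all genes tested, and a gene is called at an adjusted p under 0.05.

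**Figure D1:**
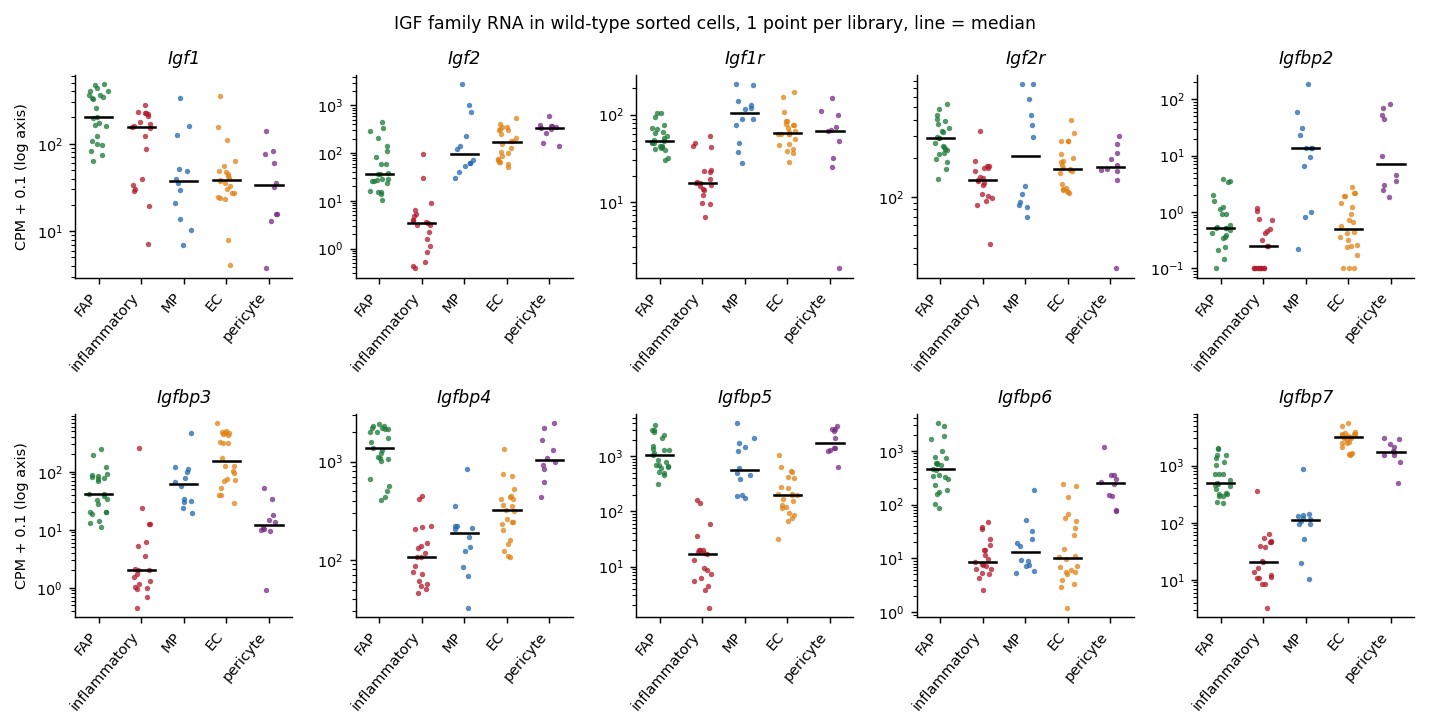
CPM + 0.1 on a log axis for each member in the 5 sorted populations, 1 point per wild-type library of days 0, 1, 2, 3, 5 and 10, with a line at the median. Igf1, Igfbp4 and Igfbp6 are highest in FAP, Igfbp7 and Igfbp3 in EC, and Igf2, Igfbp5 and Igfbp7 are low in inflammatory cells.

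In FAP 7 of the 10 members were called, all 7 higher than the mean fitted log level of the other populations. Of all genes tested, 42.1% were called in either direction. The median log2 fold change of the members was 1.13, against 0.08 over all genes. In inflammatory cells 10 of 10 were called, 9 of them lower, against 47.7% of all genes, with a median of -2.96 against -0.11. MP had 9 of 10 called (5 higher, 4 lower) against 36.7% of all genes, EC 6 of 10 (3 higher, 3 lower) against 37.9%, and pericytes 8 of 10 (6 higher, 2 lower) against 36.5%. Counts of Igfbp2 were 0 in every inflammatory library of days 0 and 10, so its fitted fold changes in these comparisons are not given, and both medians above stay the same wherever Igfbp2 lies among the lower values.

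Igf1, the ligand made by connective tissue and by macrophages, ran from 63.0 CPM through a median of 280 CPM to 662 CPM over the 32 wild-type FAP libraries. Inflammatory cells held 6.94 CPM, a median of 149.7 CPM and 277 CPM, MP had a median of 37.7 CPM, EC of 40.1 CPM and pericytes of 33.9 CPM. FAP thus had the highest median, but its range overlapped that of every other population. The highest library had 354 CPM in EC, 332 CPM in MP and 141 CPM in pericytes. That EC library is one of those closest to FAP in profile. The mean over the 6 days was 281 CPM in FAP, against 75.8 CPM in the other populations (log2 fold change 2.40 ± 0.25 SE, adjusted p = 1.12e-12). In inflammatory cells it was 132 CPM, against 113 CPM in the others (1.05 ± 0.27, adjusted p = 0.000589). FAP exceeded inflammatory cells by 1.08 ± 0.36 (adjusted p = 0.00874), whereas no difference was called among MP, EC and pericytes (adjusted p 0.828 for MP against EC, 0.929 for EC against pericytes and 1.0 for MP against pericytes).

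Igf2, the imprinted growth factor of the embryo, spread most widely in MP, with 30.5 CPM, a median of 186 CPM and 4576 CPM over 16 libraries. Pericytes held 139.9 CPM, a median of 340.2 CPM and 598 CPM, and EC 51.0, 181 and 1002 CPM. FAP reached 1141 CPM with a median of 71.3 CPM, and inflammatory cells had a median of 4.72 CPM and a maximum of 95.8 CPM. The ranges of the 4 populations other than inflammatory cells overlapped. Igf2 was called higher in MP (669 CPM, against 177 CPM in the others; 1.26 ± 0.24, adjusted p = 2.10e-05), in EC (1.35 ± 0.21, adjusted p = 1.58e-07) and in pericytes (2.04 ± 0.25, adjusted p = 2.01e-10), and lower in inflammatory cells (-4.73 ± 0.44, adjusted p = 1.39e-14). The highest mean CPM was in MP and the highest fitted mean log level in pericytes. The MP mean rested on its single day 5 library: without day 5 it was 237 CPM, against 151 CPM in the others and 307 CPM in pericytes alone, and the fitted difference of MP was 0.90 (adjusted p = 0.00262). No difference was called among MP, EC and pericytes (adjusted p 1.0 for MP against EC, 0.189 for MP against pericytes and 0.171 for EC against pericytes). FAP was called lower than EC (-1.01 ± 0.29, adjusted p = 0.0026), MP (-0.94 ± 0.32, adjusted p = 0.0126) and pericytes (-1.56 ± 0.34, adjusted p = 0.000154). It was called higher than inflammatory cells (3.85 ± 0.42, adjusted p = 4.15e-12). Igf2 overlaps Igf2os and Mir483 in the annotation, and Igf2os had a maximum of 4.30 CPM in MP.

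The receptors varied less between populations. Igf1r, the signalling receptor, had medians of 108 CPM in MP, 65.1 CPM in pericytes, 63.5 CPM in EC, 48.1 CPM in FAP and 18.4 CPM in inflammatory cells. The inflammatory level was lower than that of the others (-1.21 ± 0.21, adjusted p = 1.34e-06), and MP were higher (0.72 ± 0.19, adjusted p = 0.00152). No difference was called among MP, pericytes, EC and FAP taken by pairs (adjusted p 0.0791 to 0.927). Igf2r, the clearance receptor, had medians of 359 CPM in MP, 291 CPM in FAP, 188 CPM in EC, 172 CPM in pericytes and 124 CPM in inflammatory cells. It was called higher in FAP (1.07 ± 0.14, adjusted p = 2.42e-09) and lower in inflammatory cells (-0.62 ± 0.17, adjusted p = 0.00173; without day 0 -0.37, adjusted p = 0.08). The mean CPM was highest in MP (337 CPM, against 324 CPM in FAP), but FAP was the highest when libraries were scaled with trimmed means, and the fitted log level was higher in FAP than in MP (0.80 ± 0.21, adjusted p = 0.00149). Igf2r overlaps the antisense gene Airn, and whether the counts used strand is not stated.

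Igfbp6, which binds IGF-2 more strongly than IGF-1, had the largest FAP excess of the members. It ran from 87.9 CPM through a median of 549 CPM to 3284 CPM in FAP and from 75.8 CPM through 249 CPM to 1191 CPM in pericytes, while EC, MP and inflammatory cells had medians of 10.7, 13.0 and 9.44 CPM. The FAP mean was 844 CPM, against 98.9 CPM in the other populations (4.19 ± 0.41, adjusted p = 1.28e-13), or 555 CPM, against 76.7 CPM, without day 0, and FAP and pericytes were not called different (adjusted p = 0.0683). Igfbp4, which blocks IGF action until the protease PAPP-A cuts it, averaged 1538 CPM in FAP, against 504 CPM in the others (2.30 ± 0.23, adjusted p = 1.97e-13), and again FAP and pericytes were not called different (adjusted p = 0.155). Igfbp5, the binding protein that also attaches to matrix, averaged 2100 CPM in pericytes, against 833 CPM in the others (2.57 ± 0.27, adjusted p = 3.26e-12). In FAP it averaged 1678 CPM, against 939 CPM (2.30 ± 0.24, adjusted p = 1.34e-12), and in MP 1330 CPM, against 1026 CPM (0.85 ± 0.28, adjusted p = 0.013; 798 CPM in MP, against 933 CPM, without day 5), whereas inflammatory cells had a median of 19.7 CPM. The MP call was lost without day 5 or day 10 (adjusted p 0.094 and 0.173) and without the libraries closest to another population (0.65, adjusted p = 0.0952). Pericytes and FAP were not called different (adjusted p = 0.804). The part of the FAP markers held by the pericyte libraries in these comparisons of pericytes with FAP was not tested.

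Igfbp7, a low-affinity IGF binder known from vessel walls, had its highest levels in EC, where the 31 libraries ran from 1512 CPM through a median of 3065 CPM to 5544 CPM. FAP held 223, 640 and 2049 CPM, pericytes 490, 1752 and 3010 CPM, and inflammatory cells had a median of 35.9 CPM. EC averaged 3006 CPM, against 716 CPM in the others (3.43 ± 0.25, adjusted p = 9.73e-19), and EC and pericytes were not called different (adjusted p = 0.0923). Igfbp7 overlaps Polr2b on the other strand in the annotation, and whether the counts used strand is not stated. Igfbp3, the main carrier of IGF in plasma, averaged 290 CPM in EC, against 60.7 CPM in the others (3.07 ± 0.30, adjusted p = 5.31e-14). It was also called in inflammatory cells (-3.22 ± 0.52, adjusted p = 2.11e-07), in pericytes (-1.83 ± 0.47, adjusted p = 0.00137) and in MP (1.03 ± 0.34, adjusted p = 0.011), where the call was lost without day 2 or day 5 (adjusted p 0.119 and 0.0888). In FAP the fitted log levels and the plain means of Igfbp3 and Igfbp7 ran opposite ways. Igfbp3 averaged 77.0 CPM in FAP, against 114 CPM in the others, but 0.94 ± 0.30 on the fitted log scale (adjusted p = 0.00723), and Igfbp7 averaged 831 CPM in FAP, against 1260 CPM, but 1.19 ± 0.24 (adjusted p = 3.85e-05). Both genes were therefore higher in FAP only against the mean fitted log level of the others, and not by mean CPM. By pairs on that scale FAP lay below EC for Igfbp3 (-1.71, adjusted p = 0.000572) and Igfbp7 (-1.80, adjusted p = 2.91e-05). For Igfbp7 FAP also lay below pericytes (-0.98, adjusted p = 0.0349). FAP lay above inflammatory cells for both (3.32 and 4.51), above MP for Igfbp7 (3.02) and above pericytes for Igfbp3 (2.21). Igfbp3 was not called different between FAP and MP. The FAP call of Igfbp3 against the others was lost without day 0, 3 or 10 (adjusted p 0.0823 to 0.218).

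Igfbp2, a binding protein abundant in embryonic tissue, was at 0.119 CPM, a median of 13.4 CPM and 188 CPM over the 16 MP libraries and at 1.78, 7.09 and 81.1 CPM over the 10 pericyte libraries. Medians in the other populations were 0.561 CPM in EC, 0.536 CPM in FAP and 0.223 CPM in inflammatory cells, with 0 counts in 9 of the 27 inflammatory libraries. MP exceeded EC by 4.30 ± 0.52 (adjusted p = 2.76e-10), and FAP lay below MP (log2 fold change -3.52 ± 0.60, adjusted p = 2.26e-06). MP and pericytes were not called different (adjusted p = 1.0). Igfbp2 lies 5.5 kb from Igfbp5 on chromosome 1, on the opposite strand.

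Per kilobase of exon, which allows levels of different genes to be set side by side, Igfbp7 made up 90.4% of the summed level of the 6 binding proteins in EC and 62.0% in pericytes. In FAP Igfbp6 held 36.2% and Igfbp7 32.7%, in MP Igfbp5 held 45.3% (34.05% without day 5, when Igfbp7 held 34.95%), and in inflammatory cells Igfbp4 held 39.8% of a much smaller sum. In FAP the Igfbp6 share was 60.0% at day 0, 34.6% at day 1, 24.05% at day 3, 7.74% at day 5 and 39.5% at day 10. Igfbp2 made up 29.6% of the MP level at day 3 and at most 6.76% of it on any other day. Between the ligands, Igf2 stood at 117 CPM per kilobase in MP, against 6.28 for Igf1, and in FAP Igf2 stood at 25.8, against 28.3 for Igf1. Without day 5 the Igf2 values were 41.4 in MP and 15.6 in FAP, against 6.55 and 27.4 for Igf1.

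**Figure D2:**
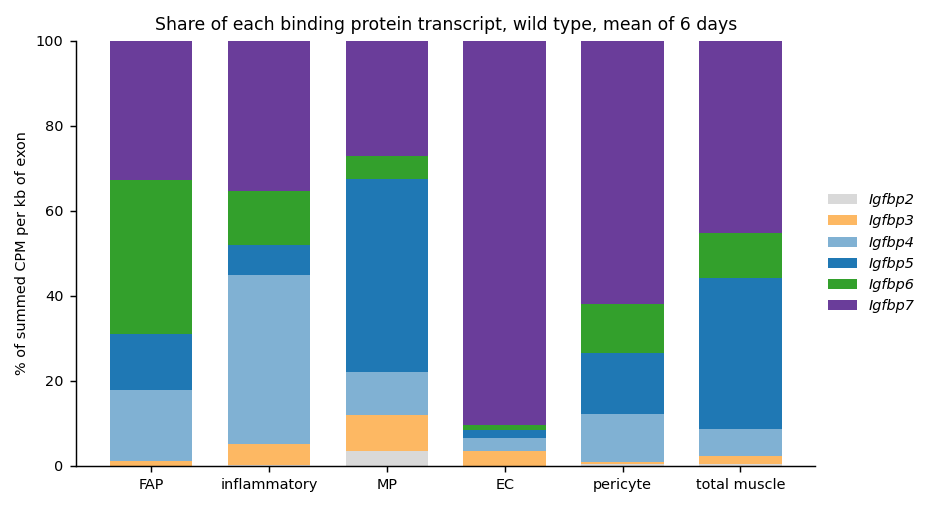
Stacked bars of the share (%) of each binding protein in the summed CPM per kilobase of exon, for the 5 sorted populations and total muscle, wild type, mean of 6 days. Igfbp7 fills 90.4% of the EC bar and Igfbp5 45.3% of the MP bar.

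Across the 45 wild-type groups of 1 population and day, which share libraries between genes and differ in depth, Igfbp4 and Igfbp6 had the highest Pearson correlation of any pair of members (0.82 on log levels), followed by Igf2 and Igfbp5 (0.79). Among 12522 genes, Igfbp6 was most like Myoc (0.95), Twist2 (0.94) and Smoc2 (0.94), Igfbp4 most like C1qtnf2 (0.93), Igfbp5 most like Sspn (0.98), Igfbp7 most like the collagen gene Col4a2 (0.96), and Igf1 most like Rnase4 (0.86). Igf2 was most like Cplx2 (0.89) and Cdkn1c (0.88), another imprinted gene, Igf1r most like Zbtb20 (0.91), Igf2r most like Spsb1 (0.85), Igfbp2 most like Cpa4 (0.85) and Igfbp3 most like Pxdn (0.85). These are descriptions over groups, without a test.

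The promoters of the 3 members that were highest in FAP are shown because these genes share a population and 2 of them the closest pattern. They run from 250 bases before the start site to 50 after it in RefSeq (GRCm38.p6), in the strand of the gene, and capitals mark matches on either strand to the E-box CAGCTG, the letters TATAAA or the AP-1 site TGANTCA. Igf1 lies on chromosome 10, Igfbp4 on chromosome 11 and Igfbp6 on chromosome 15, all on the plus strand. In the gene annotation used for exon lengths, Igf1 begins at base 87858265, before the window shown, and Igfbp6 at base 102144362, after it. Positions below therefore refer to the RefSeq start sites only.
Igf1, chr10:87860861-87861160: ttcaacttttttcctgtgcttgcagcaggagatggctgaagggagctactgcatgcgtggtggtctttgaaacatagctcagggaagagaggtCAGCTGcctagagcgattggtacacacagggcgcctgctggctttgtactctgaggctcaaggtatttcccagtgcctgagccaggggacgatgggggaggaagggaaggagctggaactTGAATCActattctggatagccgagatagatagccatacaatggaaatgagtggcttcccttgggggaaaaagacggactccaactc
Igfbp4, chr11:99040994-99041293: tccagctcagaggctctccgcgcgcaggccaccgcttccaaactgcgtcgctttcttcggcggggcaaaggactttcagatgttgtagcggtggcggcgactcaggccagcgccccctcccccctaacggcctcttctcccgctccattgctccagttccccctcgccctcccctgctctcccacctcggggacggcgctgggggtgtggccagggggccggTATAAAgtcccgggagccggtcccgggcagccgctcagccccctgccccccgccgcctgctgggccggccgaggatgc
Igfbp6, chr15:102143936-102144235: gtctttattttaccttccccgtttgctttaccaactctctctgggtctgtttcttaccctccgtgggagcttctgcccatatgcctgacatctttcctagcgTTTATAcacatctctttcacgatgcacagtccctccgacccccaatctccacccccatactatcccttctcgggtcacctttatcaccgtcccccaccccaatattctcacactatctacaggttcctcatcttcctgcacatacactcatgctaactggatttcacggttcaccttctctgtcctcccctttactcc
Igf1 held an E-box that starts 157 bases upstream of the start site and an AP-1 site 37 bases upstream, Igfbp4 held TATAAA 28 bases upstream, and Igfbp6 held TTTATA, the reverse complement, 148 bases upstream. Of 32851 promoters of the same length, 16.3% held CAGCTG, 13.6% TATAAA and 7.8% TGANTCA, so none of these is rare. CpG pairs numbered 6 in Igf1, 27 in Igfbp4 and 8 in Igfbp6, against a median of 7 over all promoters. A match is a string of letters. No motif of those searched was held by all 3 genes, and Igfbp4 and Igfbp6 both held TATAAA on one strand or the other.

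Day 2 had 6 wild-type libraries in each of FAP, EC and inflammatory cells, the largest matched set. Igfbp2 did not pass the filter on low counts there, and the tests did not pair libraries by replicate number. Against inflammatory cells 7 of 9 members tested were called in FAP, all higher, where 58.5% of all genes were called. Igfbp5 averaged 702 CPM in FAP, against 5.57 CPM in inflammatory cells (6.63 ± 0.48, adjusted p = 6.55e-10), and Igfbp6 averaged 298 CPM, against 9.20 CPM (4.69 ± 0.77). Igf1 did not differ by the test, with 154 CPM in FAP, against 146 CPM in inflammatory cells (-0.29 ± 0.33, adjusted p = 0.467). Against EC 7 of 9 members were called in FAP, 4 higher and 3 lower, where 45.6% of all genes were called. Igf1 averaged 154 CPM in FAP, against 31.0 CPM in EC (2.33 ± 0.35, adjusted p = 2.32e-05), while Igfbp7 averaged 375 CPM in FAP, against 3498 CPM in EC (-3.22 ± 0.51, adjusted p = 3.97e-05). Igf2 averaged 21.7 CPM in FAP, against 106 CPM in EC (-2.31 ± 0.48), and the groups did not overlap.

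The time course was read in each population as days 1, 3, 5 and 10 against undamaged muscle of the same kind. The day 5 comparisons were added after the levels had been seen. FAP had 4 of 10 members called at day 1, all lower, where 26.6% of all genes were called in either direction. MP had 6 of 10 called at day 1, against 16.1% of all genes, and 5 of 10 at day 3, against 32.1%. The highest day mean of Igf2 lay between days 4 and 6 in total muscle, MP, FAP, EC and inflammatory cells. In EC it was that of day 6, with 223, 1002 and 688 CPM, and in inflammatory cells that of day 6, with 53.6 and 72.7 CPM.

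**Figure D3:**
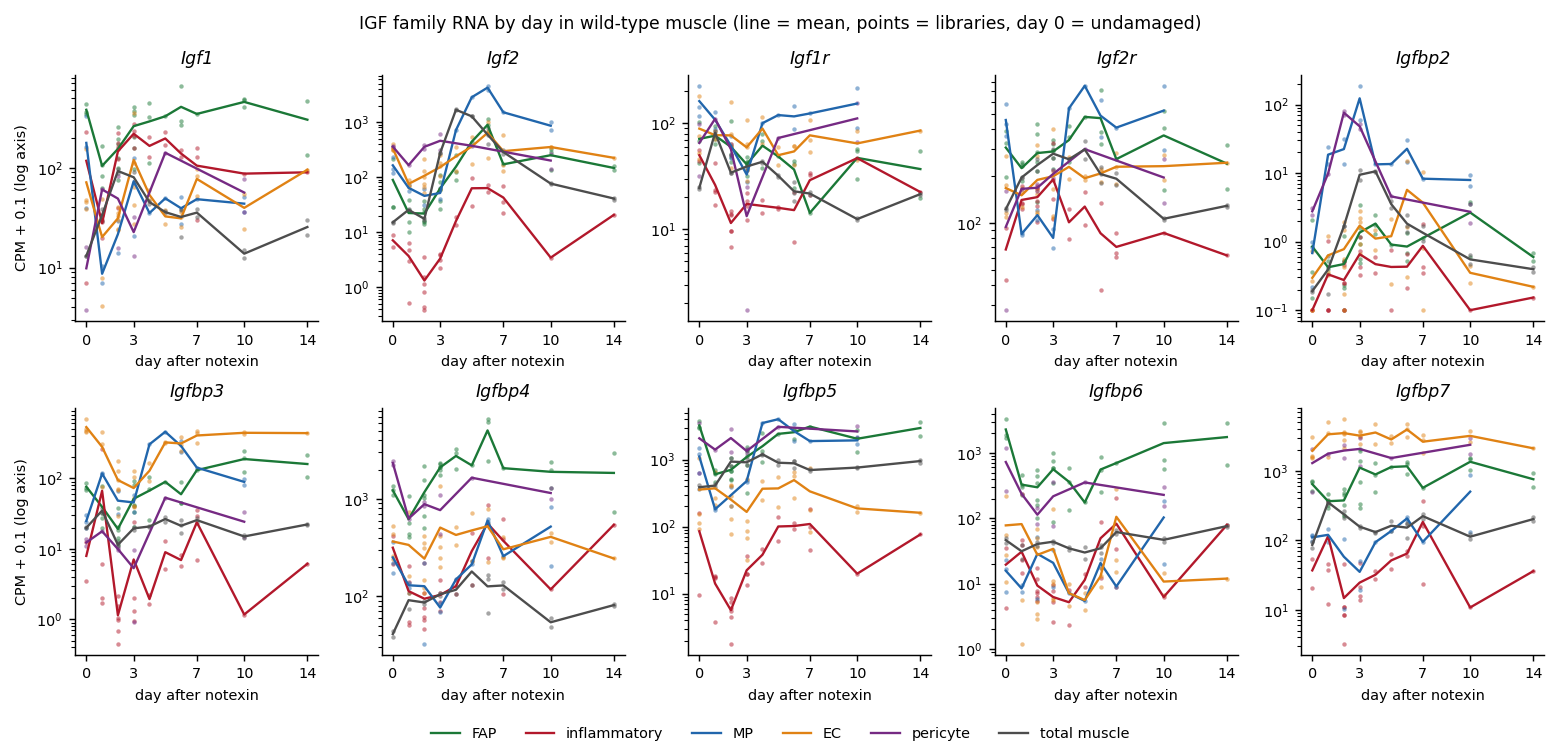
CPM + 0.1 on a log axis against the day after notexin for each member in wild-type libraries, lines through the mean of each day and points for libraries, coloured by population. Igf2 in total muscle stands at 15.0 CPM on day 0 and 1272 CPM on day 5, and Igfbp2 in MP at 0.580 CPM on day 0 and 123 CPM on day 3.

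In FAP 4 of 10 members were called at day 1, all lower, where 26.6% of all genes were called in either direction. Igf1 had 164, 107, 83.5 and 63.0 CPM at day 1, against 434, 342 and 365 CPM at day 0 (-1.93 ± 0.44, adjusted p = 0.00169). Igfbp5 had 640, 464, 605 and 700 CPM at day 1, against 2956, 3705 and 3014 CPM at day 0 (-2.47 ± 0.39, adjusted p = 3.88e-05). Igfbp6 had 322, 302, 228 and 457 CPM at day 1, against 3284, 1899 and 1676 CPM at day 0 (-2.86 ± 0.74, adjusted p = 0.00517). For these 3 genes, already picked as called, every day 1 library lay below every day 0 library, which is no further test. Igf2 had 10.2, 25.4, 38.0 and 15.1 CPM at day 1, against 210.5, 28.2 and 28.3 CPM at day 0 (-2.07 ± 0.59, adjusted p = 0.00957). Here the groups overlapped, and without the day 0 library of 210.5 CPM the adjusted p was 0.642.

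At day 3, 2 of 10 members were called in FAP, both lower, where 19.2% of all genes were called. Igfbp5 had 320 to 1542 CPM over 6 libraries (-1.47 ± 0.35, adjusted p = 0.00333) and Igfbp6 87.9 to 1008 CPM (-1.93 ± 0.64, adjusted p = 0.0354), again below every day 0 library. The Igfbp6 call was lost without day 0 library 1 or 2 or without day 3 library 1, 4 or 5 (adjusted p 0.0506 to 0.13). Igf1 at day 3 spread from 96.7 to 404 CPM and was not called (adjusted p = 0.407). At days 5 and 10 no member was called in FAP, where 2.22% and 0.349% of all genes were called. Igf2 nevertheless had 439.6 CPM in the single day 5 library and 665, 1141 and 872 CPM at day 6 (day 5 fold 2.45 ± 0.80, adjusted p = 0.111), and Igfbp4 had 2473, 6580 and 6091 CPM at day 6, against 1084, 1367 and 1222 CPM at day 0. The change from day 0 to day 3 was not called different between FAP and EC or between FAP and inflammatory cells for any member (0 of 10 each, where 0.344% and 3.37% of all genes were called). Without libraries closest to another population, Igf2r was called lower in this difference of FAP against inflammatory cells (-1.87, adjusted p = 0.0467).

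In MP 6 of 10 members were called at day 1, 2 higher and 4 lower, where 16.1% of all genes were called. Igf1 had 6.88 and 10.2 CPM at day 1, against 332, 160.5 and 39.5 CPM at day 0 (-4.47 ± 1.02, adjusted p = 0.0131). Igf2r had 83.8 and 86.6 CPM at day 1, against 433, 360 and 582 CPM at day 0 (-2.49 ± 0.44, adjusted p = 0.0036), and Igfbp5 189 and 174 CPM, against 1484, 1219 and 620 CPM (-2.68 ± 0.58, adjusted p = 0.0102). Igf2 had 72.8 and 54.8 CPM at day 1, against 119.6, 142 and 230 CPM at day 0 (-1.41 ± 0.43, adjusted p = 0.047). The day 1 libraries lay below all day 0 libraries for these 4 genes, which describes genes already called and is no further test. The call of Igf2 was lost when any 1 of the 5 libraries was left out (adjusted p 0.0653 to 0.238), and those of Igf1 and Igfbp5 when either day 1 library was (0.0866 and 0.0922 for Igf1, 0.0544 and 0.0821 for Igfbp5). Igfbp3 had 120.0 and 113 CPM at day 1, against 24.1, 30.5 and 19.7 CPM at day 0 (2.17 ± 0.36, adjusted p = 0.00286). Igfbp2 had 13.3 and 23.6 CPM at day 1, against 0.901, 0.721 and 0.119 CPM at day 0 (5.01 ± 0.80, adjusted p = 0.00232), and day 0 rested on 13 reads in all. The 8 FAP markers, all detected, summed to 844 to 916 CPM at day 1 and 2068 to 4587 CPM at day 0, and their part in the fall of Igf1 was not tested.

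At day 3 Igfbp2 stood highest in MP, with 58.5 and 188 CPM, against the day 0 values above (8.06 ± 0.87, adjusted p = 0.000304). The ratio of pooled counts was 296, with a 95% counting interval of 173 to 557. In all 5 of 10 members were called at day 3, 2 higher and 3 lower, where 32.1% of all genes were called. Igf1r had 27.9 and 37.5 CPM at day 3, against 143, 117 and 226 CPM at day 0 (-2.08 ± 0.46, adjusted p = 0.00652). Igf2r had 91.4 and 69.3 CPM at day 3 (-2.28 ± 0.43, adjusted p = 0.00308), below the day 0 values above. Igf2 had 40.1 and 62.9 CPM at day 3 (-1.44 ± 0.43, adjusted p = 0.0258), and Igfbp3 33.6 and 57.1 CPM (1.09 ± 0.36, adjusted p = 0.0374). With 1 library left out, the call of Igfbp3 was lost without any of the day 0 libraries or without day 3 library 2 (adjusted p 0.0504 to 0.399). That of Igf2 was lost without day 0 library 2 or 3 or either day 3 library (0.0518 to 0.163), and that of Igf1r without day 3 library 1 (0.0535). The first day 3 library is the one closest to inflammatory cells. Its 6 leukocyte markers summed to 5215 CPM and its 7 macrophage markers to 6322 CPM, against 978 and 1165 CPM in the second, and leukocyte sums were 13.3 to 22.9 CPM at day 0. Without libraries closest to another population Igfbp2 was at 8.74 (adjusted p = 0.000183), Igf2 was no longer called (-1.16, adjusted p = 0.117), and Igf1, 126 CPM in the first library and 20.7 CPM in the second, was called lower (-2.90, adjusted p = 0.0496), as was Igfbp4 (-1.35, adjusted p = 0.0496).

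MP at day 5 rested on 1 library, which is assumed to vary like the others. In it 3 of 10 members were called, all higher, where 1.33% of all genes were called. Igf2 had 2830 CPM (3.94 ± 0.47, adjusted p = 0.00411) and Igfbp3 457 CPM (4.03 ± 0.42, adjusted p = 0.00233), both above all day 0 libraries, and Igfbp2 had 13.5 CPM (4.48 ± 0.87, adjusted p = 0.0287). Igf2 was also high on neighbouring days, with 717 CPM at day 4, 4576 and 3881 CPM at day 6 and 1508 CPM at day 7. Igfbp5 had 3501 CPM at day 4, 3992 CPM at day 5 and 3394 and 1910 CPM at day 6, though its day 5 change was not called (1.67 ± 0.61, adjusted p = 0.311). At day 10 Igf2 alone was called among the members (1 of 10, where 0.479% of all genes were called), with 726 and 992 CPM (2.36 ± 0.41, adjusted p = 0.0345). The first of these is the library closest to pericytes, whose pericyte markers summed to 10600 CPM and myofibre markers to 34520 CPM. Its Igf2 was the lower of the pair. Without libraries closest to another population, Igf2 was at 2.38 and Igfbp2 at 3.97, both called (adjusted p = 0.0346 each). With only 1 library left out at a time, the day 10 call of Igf2 was lost without day 0 library 1 or 2 or day 10 library 1 (adjusted p 0.0817 to 0.237), and the day 5 call of Igfbp2 without any of the 3 day 0 libraries (0.0637 to 0.111).

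In EC 1 member was called on each of days 1 and 3. At day 1 Igf2 alone was called (1 of 10, where 5.44% of all genes were called), with 72.1, 65.7 and 88.0 CPM, against 306, 399.7, 306 and 319 CPM at day 0 (-2.09 ± 0.59, adjusted p = 0.0352). The groups did not overlap, but without both EC libraries closest to FAP, among them the day 1 library of 88.0 CPM, the adjusted p was 0.0946, and leaving out any 1 of the 7 libraries ended the call (adjusted p 0.0583 to 0.134). Without both, Igf1 was called lower instead (-3.49, adjusted p = 0.00252), with 7.74 and 3.99 CPM at day 1, against 47.3, 154, 44.9 and 38.4 CPM at day 0. At day 3 Igfbp3 alone was called (1 of 10, where 6.54% of all genes were called), with 104, 127, 52.7, 39.7 and 39.8 CPM, against 506, 459, 476 and 689 CPM at day 0 (-2.74 ± 0.44, adjusted p = 0.000972). Every day 3 library lay below every day 0 library, and Igfbp3 stood at 28.9 to 176 CPM over the 6 libraries of day 2 and at 315 and 330.4 CPM at day 5. Without both EC libraries closest to FAP, Igfbp3 was at -2.65 (adjusted p = 0.000479) and Igfbp6 was called lower as well (-3.01, adjusted p = 0.0492), where the library left out held 138 CPM of Igfbp6 and the other 4 of day 3 held 5.50 to 10.7 CPM. No member was called at day 5 or day 10, where 0.0769% and 0.0% of all genes were called. At day 10 edgeR called 0 genes in all, with 737 at an unadjusted p under 0.05, and DESeq2 called 43.

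In inflammatory cells Igf2r was called at days 1 and 3 and Igf1r at day 3, on each day with a share of members called near that of all genes. At day 1, 2 of 10 members were called, 1 higher and 1 lower, where 19.2% of all genes were called. Igf2r had 132, 134, 173 and 124 CPM at day 1, against 43.0 and 92.5 CPM at day 0 (1.51 ± 0.41, adjusted p = 0.0143), with no overlap. Igfbp5 was called lower (-2.26 ± 0.75, adjusted p = 0.0371), but its day 0 libraries had 160.2 and 9.53 CPM, and the second lay among the day 1 values of 3.65 to 18.01 CPM. Without the library of 160.2 CPM its sign turned (1.05, adjusted p = 0.414), and the call was also lost without day 1 library 2, 3 or 4 (adjusted p 0.0501 to 0.0917). Without the same day 0 library Igf2r was not called at day 1 (1.11, adjusted p = 0.135), and scaled by library totals alone it was at 1.06 (adjusted p = 0.0964). At day 3, 2 of 10 were called, 1 higher and 1 lower, where 17.4% of all genes were called. Igf2r had 106, 142, 190.1 and 324 CPM (1.84 ± 0.42, adjusted p = 0.00472), and Igf1r 11.98, 22.03, 18.4 and 16.5 CPM, against 56.0 and 43.6 CPM at day 0 (-1.19 ± 0.37, adjusted p = 0.0287). The day 3 and day 0 libraries did not overlap for either receptor, both of which had already been picked as called. The day 3 call of Igf2r was lost without day 0 library 1 (adjusted p = 0.0571), that of Igf1r without either day 0 library or day 3 library 1, 3 or 4 (0.0503 to 0.174), and neither day's calls held with Xist as a covariate or with the compared days fitted alone.

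Igf1 in inflammatory cells was 19.5 to 33.3 CPM over the 4 libraries of day 1, 39.2 to 221 CPM over the 6 of day 2 and 156 to 277 CPM over the 4 of day 3. The day 0 libraries had 228 and 6.94 CPM, and no day was called (adjusted p = 0.103 at day 1 and 0.313 at day 3). The 7 macrophage markers, all detected, summed to 10680 CPM in the first of these day 0 libraries and 692 CPM in the second, and their part in the Igf1 levels was not tested. At day 5 Igf2 alone was called (1 of 10, where 7.21% of all genes were called), with 29.5 and 95.8 CPM, against 8.79 and 5.24 CPM at day 0 (3.54 ± 1.00, adjusted p = 0.0351). The call was lost without either day 0 library or day 5 library 2 (adjusted p 0.0523 to 0.322), with Xist as a covariate and with the compared days fitted alone. The 8 FAP markers summed to 2280 to 2886 CPM at day 5 and 206 to 1155 CPM at day 0, all 8 detected, and their part in this rise was not tested. At day 10 (1 library) no member was called, where 0.147% of all genes were called.

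In pericytes no member was called on any day, where 0.00661%, 0.0397%, 0.00661% and 0.0% of all genes were called at days 1, 3, 5 and 10. At day 10 edgeR called 0 genes, with 187 at an unadjusted p under 0.05, and DESeq2 called 44. Days 1 and 5 had 1 library each and day 0 had 2. Igfbp2 nevertheless stood at 71.0 and 81.1 CPM at day 2 and 43.7 and 52.3 CPM at day 3, against 2.97 and 2.37 CPM at day 0 (day 3 fold 3.93 ± 1.54, adjusted p = 0.391). The leukocyte markers of these day 3 libraries summed to 1784 to 2250 CPM, all 6 detected, against 4.03 to 16.2 CPM at day 0. Igfbp2 itself reached at most 1.73 CPM in inflammatory cells. The myogenic markers of the pericyte libraries summed to 1498 to 2091 CPM at day 3, against 2590 to 2813 CPM at day 0. The part of either marker set in the Igfbp2 level was not tested.

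**Figure D4:**
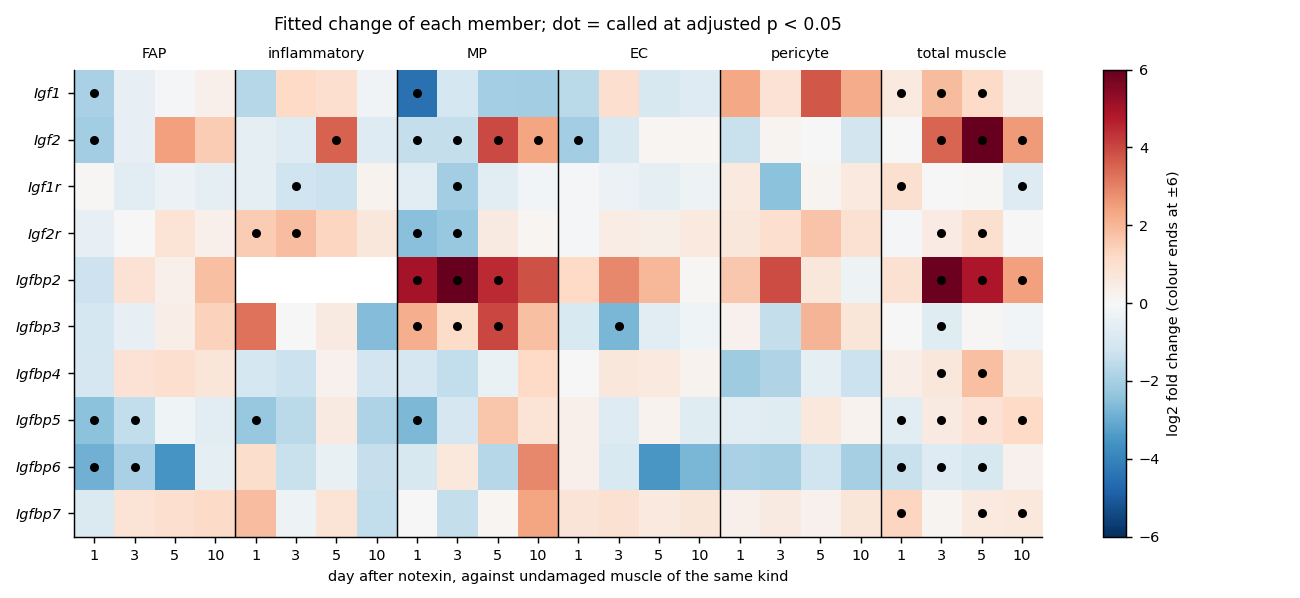
Fitted log2 fold change of each member (rows) at days 1, 3, 5 and 10 against undamaged muscle of the same kind (columns, by population), red for higher and blue for lower, with a dot where the gene was called. Cells are blank where a group had no reads, and the colour ends at ±6. Most dots lie in total muscle, FAP at day 1 and MP at days 1 and 3.

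In total muscle Igf2 and Igfbp2 rose most among the members at days 3, 5 and 10. Igf2 had 14.6 and 15.4 CPM at day 0, 26.2 and 24.5 CPM at day 1, 18.2 and 16.4 CPM at day 2, 276 and 277 CPM at day 3, 1709 and 1643 CPM at day 4 and 1276 and 1268 CPM at day 5, and then 394 to 795 CPM over 3 libraries of day 6, 305 and 266 CPM at day 7, 75.6 and 76.7 CPM at day 10 and 42.4 and 39.1 CPM at day 14. Every library from day 1 on stood above both day 0 libraries in CPM, those of days 1 and 2 by the least. Against day 0 the fold was 3.51 ± 0.19 at day 3 (adjusted p = 8.49e-11), 6.09 ± 0.21 at day 5 (adjusted p = 5.88e-13) and 2.57 ± 0.18 at day 10 (adjusted p = 4.40e-08). Igfbp2 rested on 2 reads at day 0, so its pooled counts are given: 242 reads at day 3 made a ratio of 104 (95% counting interval 28.5 to 865), 96 reads at day 5 a ratio of 38.1 (10.3 to 319) and 12 reads at day 10 a ratio of 5.02 (1.12 to 46.2). Its highest libraries were those of day 3, with 7.83 and 10.9 CPM, and day 4, with 10.4 and 10.6 CPM, and its day 10 call was lost when any 1 of the 4 libraries was left out (adjusted p 0.0793 to 0.165).

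Many members were called in total muscle, and so were many other genes: 5 of 10 members at day 1, where 67.1% of all genes tested were called in either direction, 8 of 10 at day 3 against 65.8%, 8 of 10 at day 5 against 49.1% and 5 of 10 at day 10 against 31.1%. Igf1 reached its highest level at day 2, with 97.0 and 88.2 CPM, and had 70.8 and 89.5 CPM at day 3, against 13.1 and 13.0 CPM at day 0 (day 3 fold 1.92 ± 0.19, adjusted p = 1.32e-07). Igf1r was high at day 1, with 83.8 and 79.2 CPM, against 25.0 and 23.9 CPM at day 0 (0.96 ± 0.12, adjusted p = 1.71e-06). At day 10 Igf1r was low, with 12.6 and 12.1 CPM (-0.76 ± 0.13, adjusted p = 0.000513). Igf2r had means of 279 CPM at day 3 and 297 CPM at day 5, against 123 CPM at day 0 (0.49 ± 0.12, adjusted p = 0.00137, and 0.95 ± 0.12, adjusted p = 5.16e-06).

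Among the binding proteins of total muscle, Igfbp7 had 363 and 342 CPM at day 1, against 93.3 and 78.2 CPM at day 0 (1.27 ± 0.16, adjusted p = 1.91e-06). Igfbp4 had 132 and 228 CPM at day 5, against 43.9 and 37.8 CPM at day 0 (1.81 ± 0.27, adjusted p = 3.00e-05). Igfbp6 was called lower at days 1, 3 and 5, with 38.2 and 24.02 CPM at day 1, against a mean of 46.1 CPM and a lower library of 42.2 CPM at day 0 (-1.35 ± 0.21, adjusted p = 2.01e-05). Igfbp5 had 1001 and 815 CPM at day 3, against 359 and 414 CPM at day 0 (0.54 ± 0.14, adjusted p = 0.00253). The smaller calls turned on single libraries: Igf1 at day 1 (without any library but day 1 library 2, adjusted p 0.0563 to 0.104), Igfbp4 at day 3 (without any of the 4, 0.0633 to 0.167), Igfbp5 at day 3 (without day 3 library 1, 0.0672), and Igfbp7 at day 5 (without day 0 library 2 or day 5 library 2, 0.0782 and 0.102) and day 10 (without day 0 library 2 or day 10 library 1, 0.0992 and 0.104).

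The scaling matters in total muscle, where trimmed means and library totals differ. With library totals alone the median log2 fold change of all genes was higher by 0.77 at day 1, 0.70 at day 3 and 0.32 at day 5, and changed by -0.22 at day 10. Igfbp5 at day 1, with 432 and 385 CPM, against 359 and 414 CPM at day 0, was called lower with trimmed means (-0.70 ± 0.14, adjusted p = 0.000284) and was at 0.08 with totals (adjusted p = 0.636), so its direction depends on the scaling. At day 3 Igfbp3 (-0.72 ± 0.14, adjusted p = 0.000231) and Igfbp6 (-0.77 ± 0.21, adjusted p = 0.00349) were likewise at -0.03 (adjusted p = 0.895) and -0.08 (adjusted p = 0.745) with totals. At day 10 Igfbp7 was at 0.62 ± 0.16 (adjusted p = 0.00809), and at 0.39 with totals (adjusted p = 0.152). The rise of Igf2 was at 4.20, 6.40 and 2.34 with totals at days 3, 5 and 10, all called. At day 1 Igf2 was at -0.02 ± 0.18 (adjusted p = 0.944), and was called higher with totals (0.76, adjusted p = 0.00579).

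Marker sums of several cell types moved on the same days, each with every marker detected. The 6 leukocyte markers summed to 655 to 955 CPM at day 1, 699 to 1144 CPM at day 3 and 116.5 to 169 CPM at day 5, against 14.9 to 17.4 CPM at day 0, and the 7 macrophage markers to 874 to 1190 CPM at day 1 and 1426 to 2059 CPM at day 3, against 45.3 to 52.7 CPM at day 0. The 8 FAP markers summed to 4076 to 5514 CPM at day 3, against 980.2 to 1015 CPM at day 0. The 7 myogenic markers stood at 8594 to 8619 CPM at day 5, against 3785 to 3863 CPM at day 0, and the 6 myofibre markers at 74030 to 87310 CPM at day 1, against 159000 to 159400 CPM at day 0. The 7 endothelial markers summed to 756 to 775 CPM at day 1, when Igfbp7 was high, against 351 to 418 CPM at day 0. Their part in the levels of the family was not tested.

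The other genes of the pathway, 28 listed genes that act around the ligands and receptors, were counted in the same comparisons. In FAP 19 of 27 tested were called, 18 of them higher, where 42.1% of all genes tested were called in either direction. They included Pappa, the protease that cuts IGFBP-4 (11.5 CPM in FAP, against 2.12 CPM in the others; 4.50 ± 0.51), and the serine proteases Htra3 (562 CPM, against 108 CPM; 3.81 ± 0.41) and Htra1 (432 CPM, against 262 CPM; 2.46 ± 0.20). In EC 17 of 27 were called against 37.9% of all genes, 9 higher and 8 lower, among them Stc1, a stanniocalcin (4.54 ± 0.32). In inflammatory cells 15 of 27 were called against 47.7%, 6 higher and 9 lower, with the growth hormone receptor Ghr at -4.85 ± 0.42, the adaptor Grb10 at -4.67 ± 0.41 and the receptor substrate Irs1 at -4.65 ± 0.59. In MP 10 of 27 were called, 6 higher and 4 lower, a share near the 36.7% of all genes, and they included Irs1 (2.53 ± 0.31). In pericytes 13 of 27 were called against 36.5%, 8 higher and 5 lower, including Htra1 (3.22 ± 0.23).

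By day, Foxo1, a transcription factor that the IGF pathway restrains, was called lower in inflammatory cells at day 1 (19.1 CPM, against 299 CPM at day 0; -3.48 ± 0.46) and in MP at day 1 (27.2 CPM, against 321 CPM; -3.68 ± 0.69). Htra3 was called lower in FAP at day 1 (178 CPM, against 1123 CPM; -2.71 ± 0.54). Igf2bp2, an RNA-binding protein named for Igf2 mRNA, averaged 30.8 CPM in inflammatory cells at day 1, against 0.980 CPM at day 0 (5.40 ± 0.63). In FAP 8 of 27 of these genes were called at day 1 (3 higher, 5 lower), where 26.6% of all genes were, and 7 at day 3 (2 higher, 5 lower), against 19.2%. In MP 11 of 26 were called at day 1 (2 higher, 9 lower), against 16.1% of all genes, and 14 at day 3 (3 higher, 11 lower), against 32.1%. In EC 0 of 26 were called at day 1 (5.44% of all genes) and 1 at day 3 (6.54%), and in inflammatory cells 3 of 25 on each of these days (19.2% and 17.4%). In total muscle 19 of 26 were called at day 1 (4 higher, 15 lower; 67.1% of all genes), 17 at day 3 (5 higher, 12 lower; 65.8%), 15 at day 5 (6 higher, 9 lower; 49.1%) and 11 at day 10 (6 higher, 5 lower; 31.1%), shares near those of all genes at days 1 and 3. Grb10 averaged 401 CPM in total muscle at day 5, against 34.8 CPM at day 0 (3.20 ± 0.15), and Igf2bp2 52.7 CPM at day 1, against 1.82 CPM (4.11 ± 0.28).

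H19, the non-coding RNA that lies 72.6 kb from Igf2 on chromosome 7 and is expressed from the other parental copy, was called in some of the same comparisons. Its mean was 11900 CPM in total muscle at day 5, against 358 CPM at day 0 (4.74 ± 0.27), and 3696 CPM in the day 5 FAP library, against 155 CPM (4.73 ± 0.79). In MP it stood at 5286 and 854 CPM in the day 10 libraries, against a mean of 115 CPM at day 0 (4.92 ± 0.94, adjusted p = 0.0473). The higher of these is the library whose profile lay closest to pericytes, and the difference was not tested without it. The total muscle and FAP differences were called too.

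Monocytes leave the bone marrow and reach injured tissue through the chemokine receptor CCR2, and the CCR2KO libraries allow the family to be compared where that receptor is missing. Over the 10 days that FAP of both genotypes share (18 CCR2KO and 32 wild-type libraries), Igfbp5 was called lower in CCR2KO FAP, with a mean of day means of 1339 CPM, against 2026 CPM in wild-type FAP (-0.61 ± 0.17, adjusted p = 0.0453). It was the 1 of 10 members called, where 2.14% of all genes were called. Days 4 to 6 gave 633, 828 and 688 CPM in CCR2KO FAP, against 925 to 2873 CPM in wild-type FAP, while the day 0 libraries stood at 6684 and 3228 CPM in CCR2KO FAP, against 2956, 3705 and 3014 CPM in wild-type FAP. The call did not hold with the replicate number as a block (adjusted p = 0.538), without the filter on low counts, or when any 1 of 9 of the 10 days was left out. No member was called in EC or MP, where 0.0797% and 0.00683% of all genes were called. The lowest adjusted p values there were those of Igf2 in EC, at 128 CPM in CCR2KO EC, against 282 CPM in wild-type EC (-0.70 ± 0.27, adjusted p = 0.25), and of Igfbp4 in MP, at 187 CPM in CCR2KO MP, against 277 CPM in wild-type MP (-0.65 ± 0.26, adjusted p = 0.33).

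Whether the genotype difference changed with day was tested after the levels had been seen. In FAP Igf2 was called (1 of 10, adjusted p = 0.0124), where 1.93% of all genes were called. CCR2KO FAP had 32.1 CPM at day 4, 52.2 CPM at day 5 and 49.0 CPM at day 6, against 254, 88.1 and 123 CPM, 439.6 CPM, and 665, 1141 and 872 CPM in wild-type FAP on these days. At day 10 the order was the other way, with 719, 1023 and 1322 CPM in CCR2KO FAP, against 283, 137 and 330 CPM in wild-type FAP, and the groups overlapped on none of these 4 days. The adjusted p was 0.01 without the CCR2KO libraries that held Ccr2. H19, given here without a test, had 958, 1617 and 1753 CPM in CCR2KO FAP at days 4, 5 and 6, against 998 to 2402 CPM, 3696 CPM, and 2742 to 4683 CPM in wild-type FAP. At day 10 it had 2983 to 3262 CPM in CCR2KO FAP, against 462 to 950 CPM in wild-type FAP. Igfbp6 had 29.9, 29.2 and 30.1 CPM in CCR2KO FAP at days 4, 5 and 6, against 132 to 875 CPM over the 7 wild-type libraries of these days, and its interaction was not called (adjusted p = 0.221). Igf1 had 1314, 928 and 1298 CPM in CCR2KO FAP at day 10, against 486, 407 and 476 CPM in wild-type FAP, and its interaction was not called either (adjusted p = 0.512). The single days were given no test of their own, and days 4, 5 and 6 have 1 CCR2KO library each.

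In CCR2KO FAP the 6 leukocyte markers summed to 3.23 to 4.82 CPM at day 3 and 6.36 CPM at day 4, against 46.8 to 443 CPM and 110 to 156 CPM in wild-type FAP. The 8 FAP markers summed to 57540 to 76300 CPM over days 4 to 6 in CCR2KO FAP and to 77740 to 148100 CPM in wild-type FAP. The part of these in the Igf2, Igfbp5 and Igfbp6 levels was not tested. In MP Igf2 had 346, 579.5 and 1205 CPM at days 4, 5 and 6 in CCR2KO MP, against 717, 2830, and 4576 and 3881 CPM in wild-type MP. CCR2KO MP were higher at day 3, with 260 and 406 CPM, against 40.1 and 62.9 CPM in wild-type MP. At day 10 they were higher too, with 1221 and 2068 CPM, against 726 and 992 CPM. The interaction of Igf2 in MP was not called (adjusted p = 0.116, and 0.437 without libraries closest to another population). Igf1 at day 3 had 5.86 and 1.63 CPM in CCR2KO MP, against 126 and 20.7 CPM in wild-type MP, where leukocyte markers summed to 9.79 to 13.7 CPM in CCR2KO MP and 978 to 5215 CPM in wild-type MP, a difference whose part was not tested. In MP 0 of 10 members were called for the interaction, where 0.0583% of all genes were called. In EC 0 of 10 were called, where 0.0% of all genes were called, with 669 genes at an unadjusted p under 0.05 by edgeR, and no other tool was run.

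**Figure D5:**
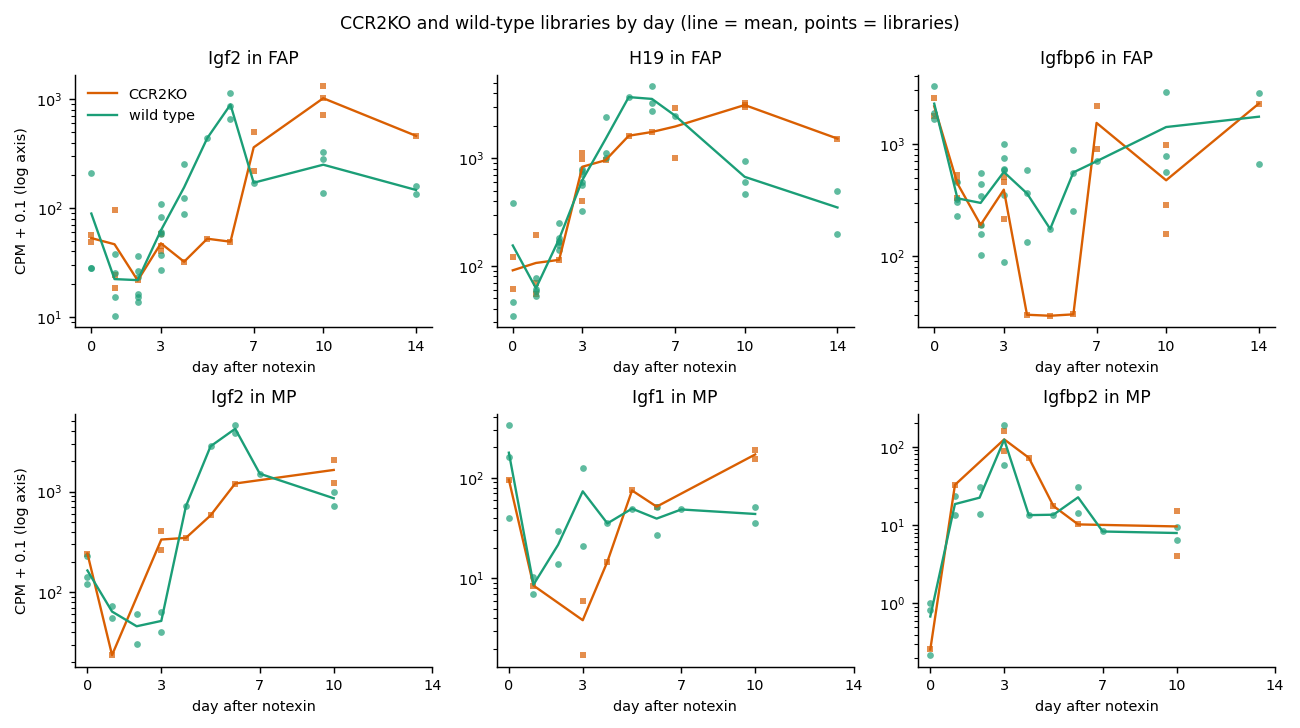
CPM + 0.1 on a log axis against the day after notexin in CCR2KO (squares) and wild-type libraries (circles), with lines through the means, for Igf2, H19 and Igfbp6 in FAP and Igf2, Igf1 and Igfbp2 in MP. In FAP Igf2 lies lower in CCR2KO than in wild type at days 4 to 6 and higher at days 7, 10 and 14.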

How the data were processed

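RNA of sorted cells and whole muscle was sequenced as paired 43-base reads, and the authors deposited raw read counts per gene symbol in 9 tables. Per the submitters' processing notes, bcl2fastq, Bowtie and STAR were used with build mm10. Which program counted the reads, with what annotation, and whether strand was used is not stated there. Rows for reads in no feature, 3.09% to 57.0% against the gene counts, stayed out of all totals. Columns were matched to libraries by their labels, and 2 EC day 5 columns give the group but not the library. The codes of 14 libraries name another day than their label, and no pair of 169 within groups agreed within sampling noise (chi-square per gene 2.67 or more).

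From the counts, CPM was computed on gene totals, so the depth of 1236809 to 37740952 counts limits the low genes. Tests were edgeR 4.0.16's quasi-likelihood test (limma 3.58.1, R 4.3.3) with trimmed-mean scaling, edgeR's own filter on low counts for each design, and Benjamini-Hochberg adjustment over all genes tested. Fits held all wild-type libraries of a population with 1 mean per day, or all wild-type sorted libraries of the 6 shared days. Other fits held the day 2 libraries of FAP, EC and inflammatory cells, or both genotypes over shared days. Tables and figures used Python 3.11.15, pandas 2.3.3, numpy 2.4.6 and matplotlib 3.10.9. Counting intervals are 95% and cover counting error only. The fitting code was tested on simulated data.

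Alternatives were other scalings, no filter, DESeq2 1.42.0, a replicate block, the letters R52 in the code or Xist as covariates, and left-out libraries and days. At day 2 every same-numbered pair deviated together (correlation 0.14 to 0.638 over 18 pairs), but differently numbered pairs were not compared, so pairing was not established. The main day 2 tests were unpaired, and the replicate block moved no count there by over 1.5 times.

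Members were named wherever tested. Of 28 other pathway genes, up to 3 called per comparison with the largest change and at least 10 CPM were named, and for likeness the closest of the genes with at least 10 CPM in a group. The members, the lists and the tests were chosen with earlier results of these data known.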

Additional observations from a re-analysis of the deposited data

Results flagged for a closer look

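Libraries far from the others of their group were looked for in 90 sets of 1 group of 4 to 10 libraries and 1 member, and 20 sets (22.2%) held one. The rule flags about 1 in 20 groups by chance if values are normally spread. CPM values need not be, and the members share libraries, so this share does not test for an excess. All values are CPM, and all but 1 are the highest of their group. In EC the day 0 library 2 held 154 CPM of Igf1 (next 47.3 CPM), 400 CPM of Igf2 (next 319 CPM) and 1060 CPM of Igfbp5 (next 155 CPM), and day 0 library 4 held 3050 CPM of Igfbp7 (next 1630 CPM). The EC day 2 library 1 held 160 CPM of Igf1r. The EC day 3 library 5, closest to FAP in its profile, held 354 CPM of Igf1, 1360 CPM of Igfbp4, 520 CPM of Igfbp5 and 138 CPM of Igfbp6 (next 10.7 CPM).

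In FAP, day 2 library 1 held 105 CPM of Igf1r, day 2 library 2 held 37.6 CPM of Igfbp3 and day 3 library 6 held 3.34 CPM of Igfbp2. In inflammatory cells, day 1 library 4 held 0.933 CPM of Igfbp2, where the next library had 0, and day 1 library 3 held 256 CPM of Igfbp3 (next 5.95 CPM) and 362 CPM of Igfbp7 (next 46.2 CPM). Day 1 library 2 was the lowest for Igfbp5, at 3.65 CPM (next 17.0 CPM). At day 2, library 4 held 3.48 CPM of Igf2 and 219 CPM of Igfbp4, and library 1 held 46.2 CPM of Igfbp7 (next 10.9 CPM). The day 3 library 4 held 23.9 CPM of Igfbp3 (next 1.90 CPM).

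The difference between CCR2KO and wild-type FAP in Igf2 changed with the day by the interaction test (adjusted p = 0.0124), lower in CCR2KO FAP at days 4 to 6 and higher at days 7, 10 and 14. What lies behind these values was not tested.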

How the results depend on the processing

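Over 39 comparisons, 448 counts of called members were recomputed under alternatives. Of these, 370 were within 1.5 times the count reported and 78 were not. Among values of called members, 1152 kept their direction and their side of the threshold, 127 kept their direction and were no longer called, and 2 reversed. Both were Igfbp5 at day 1: 1.05 (adjusted p = 0.414) in inflammatory cells without day 0 library 1 (range with 1 library left out -3.16 to 1.05), and 0.08 (adjusted p = 0.636) in total muscle with library totals alone. Causes were not tested. Depth limits Igfbp2, with 2 reads in total muscle at day 0 and 0 in inflammatory cells at days 0 and 10.

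With library totals alone, chosen after the data had been seen like all day 5 settings, 8 members in place of 5 were called in total muscle at day 1, 3 in place of 5 at day 10, and 2 in place of 1 in inflammatory cells at day 5. With the compared days fitted alone, 7 in place of 4 were called in FAP at day 1, and 0 in inflammatory cells at days 1, 3 and 5 and in MP at day 10. With Xist as a covariate the counts were 0 in inflammatory cells at days 1, 3 and 5 and 3 in place of 1 in MP at day 10. With R52 as a covariate they were 4 in place of 2 in FAP at day 3, 1 in place of 2 in inflammatory cells at day 1 and 2 in place of 1 in MP at day 10. DESeq2 called 1 in pericytes at day 3 and 1 in FAP at day 5, each in place of 0, 3 in place of 1 in MP at day 10 and in inflammatory cells at day 5, and 1 in place of 0 for the day 3 change of FAP against inflammatory cells. It also called more of all genes there, in the same order 834, 754, 783, 1970 and 1237, against 6, 337, 74, 1083 and 578 with edgeR. Counts under the other settings are given without the number of all genes called. Without the filter on low counts 2 members were called in MP at day 10, and 0 in CCR2KO against wild-type FAP. Without codes naming another day 1 in place of 2 was called in inflammatory cells at day 1. Without libraries closest to another population 2 in place of 1 were called in EC at day 3 and MP at day 10, and 1 in place of 0 for the day 3 change of FAP against inflammatory cells. The FAP genotype count was 0 in place of 1 without any of days 1, 2, 3, 4, 5, 6, 7, 10 and 14.

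With 1 library left out at a time, counts ran from 1 to 3 in inflammatory cells at day 1 (2 reported), 1 to 2 at day 3 (2), 0 to 2 at day 5 (1) and 0 to 1 at day 10 (0). They ran from 1 to 3 in FAP at day 3 (2), and 0 to 1 at days 5 and 10 (0). They ran from 3 to 5 in MP at day 1 (6), 3 to 4 at day 3 (5) and 0 to 1 at day 10 (1), from 0 to 1 in EC at day 1 (1), from 0 to 3 in pericytes at day 3 (0) and from 3 to 4 in total muscle at day 10 (5).

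In the time comparisons same-numbered libraries did not deviate together throughout (correlation -0.455 to 0.463). Where both groups held 2 libraries, as in pericytes at day 10, both pairs gave the same correlation, so the check cannot decide there. With the replicate block, counts became 1 in place of 2 in inflammatory cells at days 1 and 3, 0 in place of 1 in EC at day 1, in MP at day 10 and in the FAP genotype comparison, where Igfbp5 was at -0.36 (adjusted p = 0.538). Blocked by the library code (correlation 0.336), 2 in place of 0 were called for the day 3 change of FAP against inflammatory cells, and no other count moved by over 1.5 times. The total muscle day 10 fit of Igfbp2 on its own days gave no value.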
